A study of Mus musculus with 55 samples.

Results

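The genes described here build cholesterol, sense it, and move or store it. They are the 29 genes of the mevalonate and sterol pathway listed by name among the 31933 genes counted in mouse fat. The rule uses no measured value, but the members were chosen with earlier results of these data known. The list holds 20 synthesis enzymes, 4 regulators around the transcription factor SREBP2, and 5 genes of sterol transport and storage, and all 29 had enough counts to be tested in every depot. The mice were male C57BL/6NRj, aged 10 weeks. For 4 weeks they drank water with corticosterone (GC), the glucocorticoid that the mouse adrenal releases, or with placebo (Ctrl), and they lived either at 13 °C or at 22 °C. Laser capture took areas of 3 depots, namely brown fat between the shoulder blades (iBAT), white fat of the gonads (goWAT) and white fat under the skin (scWAT), and their RNA gave 55 libraries. In iBAT there were 5 GC and 5 Ctrl libraries at 13 °C and 5 GC and 3 Ctrl libraries at 22 °C, in goWAT 5 GC and 5 Ctrl at 13 °C and 5 GC and 4 Ctrl at 22 °C, and in scWAT 4 GC (replicates 1, 3, 4 and 5) and 5 Ctrl at 13 °C and 5 GC and 4 Ctrl at 22 °C. Which libraries share an animal is not in the labels, so the p-values measure the spread between these libraries, which may be technical. A captured area holds several cell types, and in such bulk RNA fewer cells of a type and less RNA per cell cannot be told apart.

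Cells build cholesterol from acetyl-CoA by way of mevalonate, isoprenoid diphosphates, squalene and lanosterol. SREBP2, encoded by Srebf2, is a transcription factor that is made as a membrane protein. Its escort Scap carries it out of the endoplasmic reticulum when membrane sterol is low, after which a cleaved part enters the nucleus and switches on the synthesis genes. The Insig proteins hold Scap back when sterol is high. Fat is a large store of unesterified cholesterol, most of which adipocytes take from the blood, and the efflux pump Abca1 and the enzyme Soat1, which esterifies cholesterol, are among the proteins that dispose of an excess.

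In scWAT, the depot with the most calls, Insig1 and the late enzyme Tm7sf2 fell with GC at 22 °C, with log2 fold changes of -2.58 ± 0.37 and -2.13 ± 0.24 (SE), while Hmgcs1, at the head of the pathway, rose in all 3 depots when the temperatures were averaged. The promoters of the 4 members that were called in scWAT with the temperatures averaged and are listed in the RefSeq table are printed here, since these genes moved in opposite directions under the same treatment. Each runs 5′ to 3′ from 250 bases before to 50 bases after the start that the RefSeq table gives on GRCm38.p6. For Tm7sf2 that start lies inside the longer gene that GENCODE annotates, so the whole window printed is within the gene span given for it here. Capitals mark 2 motifs that were searched on both strands, TCACNCCAC, one form of the sterol regulatory element to which SREBPs bind, and CCAAT, the box bound by NF-Y, a known partner of SREBPs.
Hmgcs1 (chr13:119690101-119690400, plus strand): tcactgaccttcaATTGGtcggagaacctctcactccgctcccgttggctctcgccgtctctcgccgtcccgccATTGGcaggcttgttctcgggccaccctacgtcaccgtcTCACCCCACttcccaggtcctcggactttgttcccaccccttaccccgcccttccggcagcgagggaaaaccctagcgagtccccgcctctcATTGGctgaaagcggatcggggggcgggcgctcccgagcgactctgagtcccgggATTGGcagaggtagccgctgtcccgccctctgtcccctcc
Insig1 (chr5:28071162-28071461, plus strand): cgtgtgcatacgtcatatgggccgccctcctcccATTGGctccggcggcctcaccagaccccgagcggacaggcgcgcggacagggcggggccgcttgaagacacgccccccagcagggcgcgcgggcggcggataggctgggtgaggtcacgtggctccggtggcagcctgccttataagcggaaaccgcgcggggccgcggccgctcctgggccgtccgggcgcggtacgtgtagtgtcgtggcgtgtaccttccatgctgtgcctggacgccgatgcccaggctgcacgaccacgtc
Tm7sf2 (chr19:6067801-6068100, minus strand): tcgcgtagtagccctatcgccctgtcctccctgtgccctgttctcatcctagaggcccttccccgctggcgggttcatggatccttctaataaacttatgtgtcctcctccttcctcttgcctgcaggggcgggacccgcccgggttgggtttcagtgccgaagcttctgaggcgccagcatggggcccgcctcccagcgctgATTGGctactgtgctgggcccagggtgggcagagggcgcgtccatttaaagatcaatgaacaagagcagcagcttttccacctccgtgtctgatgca
Acat2 (chr17:12960676-12960975, minus strand): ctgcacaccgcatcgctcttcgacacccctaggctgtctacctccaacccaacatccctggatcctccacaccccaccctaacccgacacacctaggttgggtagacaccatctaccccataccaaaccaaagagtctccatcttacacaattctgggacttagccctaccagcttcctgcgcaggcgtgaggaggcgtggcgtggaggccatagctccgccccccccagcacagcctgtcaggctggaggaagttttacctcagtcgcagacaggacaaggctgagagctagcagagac
Hmgcs1, which rose with GC, held TCACNCCAC once, at bases 114 to 122, and CCAAT 4 times, each reading ATTGG on the printed strand. Insig1 and Tm7sf2, which fell in scWAT, each held CCAAT once, and Acat2, which also fell, held neither motif in this window. TCACNCCAC stood in 1.24% of the 32851 promoters of the table and in 1 of the 24 members listed there. CCAAT stood in 37.4% of all promoters and in 41.1% of genes when any listed start was counted. Of the 24 members searched 21 held it (87.5%), and Acat2, Scap and Abca1 did not. The 2 motifs do not overlap in these promoters, and a match is a description of letters, not of a bound site.

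Total gene counts per library ran from 8622178 to 56450653. A list of 6 glucocorticoid-responsive genes was mixed in direction. Irf4 and Per1 fell with GC in all 3 depots at both temperatures, although Per1 is known as a gene that glucocorticoids induce. Hspb7 rose in goWAT at both temperatures and in scWAT at 22 °C, Zbtb16 rose in goWAT and scWAT at 22 °C, Fkbp5 rose in goWAT at 22 °C, and Tsc22d3 fell in iBAT at 13 °C. In scWAT at 22 °C the log2 fold change was -2.32 ± 0.33 (SE, edgeR adjusted p = 0.000201) for Per1 and -3.54 for Irf4. The labelled tissues carried their markers, with brown adipocyte genes at a mean log2(CPM + 0.5) of 7.57 to 9.29 in iBAT and white adipocyte genes at 11.06 to 13.47 in the white depots, CPM being counts per 1000000 after TMM scaling. Some libraries stood apart through transcripts of other cells. In scWAT these were GC replicates 2 and 3 at 22 °C (macrophage and cell cycle genes) and Ctrl replicate 3 and GC replicates 3, 4 and 5 at 13 °C (epithelial genes). In goWAT, replicate 1 of GC at either temperature carried brown fat transcripts, and GC replicates 2 and 4 at 22 °C had the lowest totals of the depot, 12310822 and 18290612 counts. GC replicate 5 at 22 °C and Ctrl replicates 1 and 4 at 13 °C were set apart as epididymis libraries, though no list of epididymis markers was counted. Their epithelial marker level was 2.99, 3.24 and 5.50. It was 3.31 in GC replicate 4 at 13 °C and 2.99 in GC replicate 2 at 22 °C, which were not in that set. In iBAT the macrophage level was highest in GC replicate 5 and Ctrl replicate 1 at 22 °C, at 6.97 and 4.79. White adipocyte genes also varied in iBAT. Their level was 8.22 to 10.60 in GC and 8.13 to 10.14 in Ctrl libraries at 13 °C. At 22 °C it was 8.61 to 9.83 in GC libraries, and 10.48, 10.53 and 8.12 in Ctrl replicates 1, 2 and 3. The highest values at 13 °C were those of GC replicate 2 and Ctrl replicate 1. The part of white adipocyte transcripts in the iBAT results was not tested. Muscle transcripts were present in all depots. Their level in iBAT was highest, 4.78 to 6.09, in GC replicate 4 and Ctrl replicate 4 at 13 °C and Ctrl replicate 3 at 22 °C, and 3 more iBAT libraries had 3.39 to 3.86, while it was 4.60 in GC replicate 2 of goWAT at 22 °C, and 7.44 in GC replicate 2 and 5.37 in Ctrl replicate 1 of scWAT at 22 °C.

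Levels of the members spanned more than 2 orders of magnitude in Ctrl libraries at 22 °C, when CPM were divided by the exon length of each gene in kilobases so that genes could be compared. Npc2, which hands cholesterol out of the lysosome, had the highest level in all 3 depots, with 177 ± 53.01 CPM per kb in iBAT, 140.1 ± 21.4 in goWAT and 183 ± 13.7 in scWAT (SD, n = 3, 4 and 4). Insig1 stood at 109.6 ± 37.5, 107 ± 32.2 and 159 ± 40.7 CPM per kb in the same order, and the enzyme Acat2 at 144 ± 59.3, 76.2 ± 16.4 and 122 ± 19.7. The synthesis enzymes differed widely among themselves. Pmvk, a mevalonate pathway kinase, was at 93.6, 51.9 and 85.5 CPM per kb, Hmgcs1 at 29.02, 32.9 and 29.9, and Sqle, the squalene epoxidase, at 4.48, 3.56 and 3.78. Srebf2 itself was low, at 3.74, 2.62 and 2.22 CPM per kb. The lower end was held by Idi1, Hsd17b7, the sterol carrier Stard4 and Soat1, whose level was 0.272, 0.780 and 0.849 CPM per kb.

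**Figure D1:**
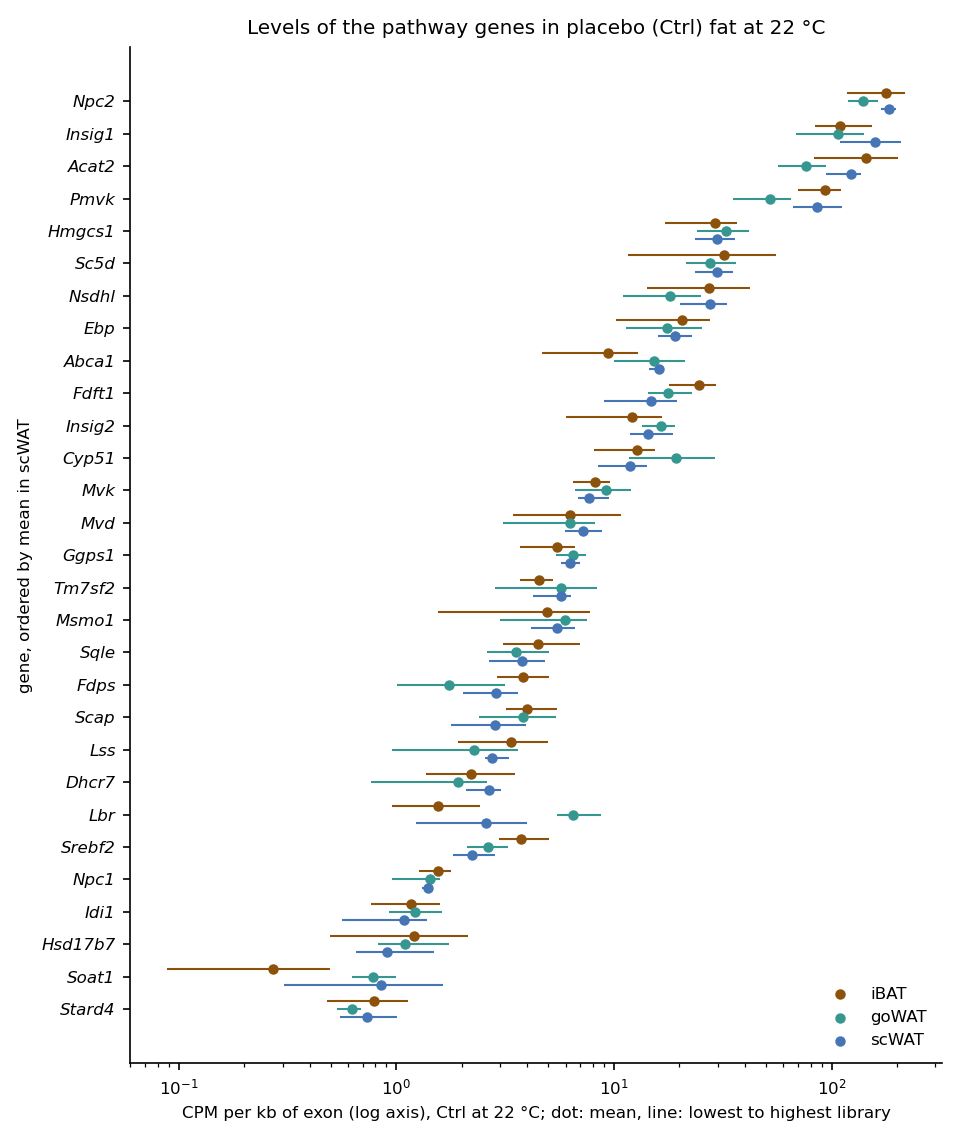
Levels of the 29 members in Ctrl libraries at 22 °C, in CPM per kilobase of exon on a log axis, with the mean (point) and the range over the libraries (line) for iBAT (n = 3), goWAT (n = 4) and scWAT (n = 4). Npc2 leads in each depot, at 177 CPM per kb in iBAT, and Soat1 and Stard4 lie under 1 in all 3.

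All adjusted p-values below come from the quasi-likelihood test of edgeR, adjusted by Benjamini and Hochberg's method over the genes tested in a comparison, and a gene is called to have risen or fallen where that value is under 0.05. With GC in scWAT, 4 of the 29 members were called at 22 °C, where 6.93% of all 19003 genes tested were, and 3 at 13 °C, against 2.59% of all genes. With the temperatures averaged, 5 members were called in scWAT (background 11.1%), 2 in goWAT (8.39%) and 1 in iBAT (2.84%). In goWAT 1 member was called at 22 °C and 1 at 13 °C, against 5.98% and 1.45% of all genes. In iBAT none was called at either temperature, and 0.664% of genes were called at 22 °C and 0.728% at 13 °C. There, 3 and 5 members had an unadjusted p under 0.05, as had 11.1% and 10.1% of genes, and DESeq2 called 0 and 1 members. As shares of the 29 members, the scWAT calls were 13.8% at 22 °C, 10.3% at 13 °C and 17.2% averaged, each above its background, while the 6.9% of goWAT averaged lay below its own. No test of such a share was made.

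The members did not share 1 direction. In scWAT at 13 °C, 22 of the 29 members had a negative log2 fold change and the median was -0.27, against 0.01 over all genes tested. At 22 °C in scWAT the signs were split, 15 positive and 14 negative, with a median of 0.06 for the members and 0.06 for all genes. Among the 20 enzymes 15 were negative at 13 °C and 12 at 22 °C. The enzymes' mean log2 level in scWAT at 13 °C was 5.70 in GC replicate 1, inside the Ctrl range of 5.11 to 5.96. It was 5.30, 4.87 and 4.86 in GC replicates 3, 4 and 5, which are epithelial libraries. Above their depot median stood 18, 10, 3 and 3 of the 20 enzymes in GC replicates 1, 3, 4 and 5. The part of epithelial transcripts in the signs at 13 °C was not tested. Many enzymes stood high or low together within a library, so the signs are not independent observations. The median over the members was -0.04 at 13 °C and 0.13 at 22 °C in goWAT, and -0.05 and 0.19 in iBAT, with the medians of all genes between 0.01 and 0.05.

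**Figure D2:**
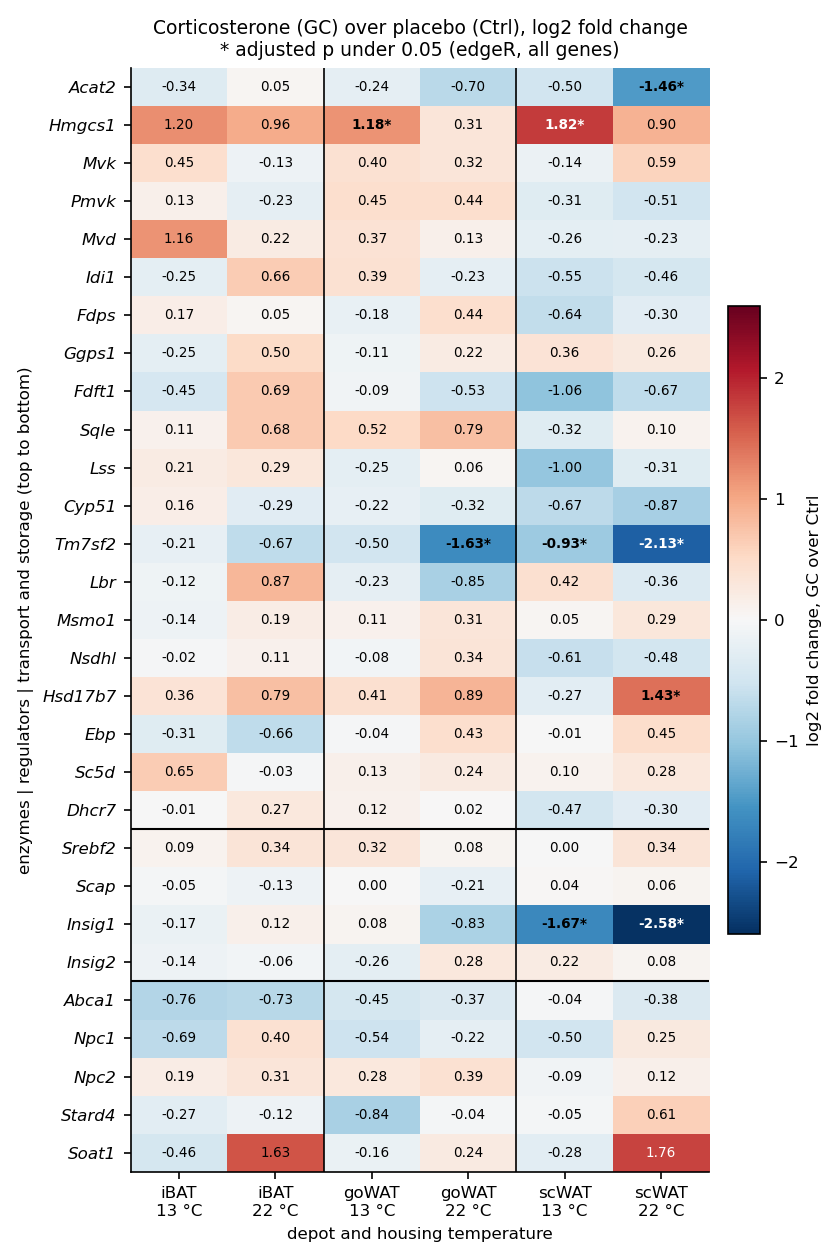
Log2 fold change of GC over Ctrl for each of the 29 members (down the page, grouped by role) in the 3 depots at 13 °C and at 22 °C (columns), with an asterisk where the edgeR adjusted p was under 0.05. Hmgcs1 is positive in all 6 columns and Tm7sf2 negative in all 6, and Insig1 is strongly negative in the 2 scWAT columns, at -1.67 and -2.58, and at -0.17 and 0.12 in the iBAT columns.

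Hmgcs1 (ENSMUSG00000093930, chromosome 13, 119690379 to 119708260, plus strand on GRCm38) encodes the cytosolic HMG-CoA synthase, which condenses acetoacetyl-CoA with acetyl-CoA at the head of the pathway. In scWAT at 13 °C it had 255, 681, 443 and 312 CPM in GC libraries, against 142, 117, 103, 119.5 and 118 CPM in Ctrl libraries. Each GC library lay above each Ctrl library, and the log2 fold change was 1.82 ± 0.27 (SE, edgeR adjusted p = 0.000670). At 22 °C it had 377, 246, 191, 387 and 227 CPM in GC libraries, against 152, 156, 121 and 183 CPM in Ctrl libraries, again without overlap. Here the log2 fold change of 0.90 ± 0.28 (SE, edgeR adjusted p = 0.0513) just missed the threshold. Averaged over the temperatures Hmgcs1 rose, with a log2 fold change of 1.36 ± 0.19 (SE, edgeR adjusted p = 7.60e-05). The epithelial marker level, the mean log2(CPM + 0.5) of 6 genes of which none was at 0 in all scWAT libraries, was -0.93 to 5.38 in GC and -0.84 to 3.58 in Ctrl libraries at 13 °C. GC replicate 1, at the low end of that range, had 255 CPM of Hmgcs1, still above each Ctrl library. Without the 4 epithelial libraries, which leaves 1 GC library at 13 °C whose spread is taken from the other groups, the log2 fold change at 13 °C was 1.05 (edgeR adjusted p = 0.732). The averaged call held without them, at 0.97 (edgeR adjusted p = 0.0306).

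In goWAT at 13 °C Hmgcs1 had 346, 249, 123, 285 and 305 CPM in GC libraries, against 133, 172, 83.2, 74.3 and 115 CPM in Ctrl libraries. GC replicate 3 lay inside the Ctrl range and the other GC libraries above it, for a log2 fold change of 1.18 ± 0.26 (SE, edgeR adjusted p = 0.0236), a call that was lost under 7 of 19 alternatives with adjusted p up to 0.161. They were the fit of only the 2 groups, the one without the epididymis libraries, and those without Ctrl replicate 3, 4 or 5 or GC replicate 4 or 5. At 22 °C the values were 254, 189.5, 194, 206 and 177 CPM in GC and 205, 166, 164 and 122 CPM in Ctrl libraries, which overlapped. Averaged over the temperatures Hmgcs1 rose in goWAT, with a log2 fold change of 0.75 ± 0.19 (SE, edgeR adjusted p = 0.0170). In iBAT at 13 °C Hmgcs1 had 222, 233, 259.7, 171 and 148 CPM in GC libraries and 116, 110.02, 79.1, 86.2 and 57.1 CPM in Ctrl libraries. The groups did not overlap, as held for 2 of 29 members and for 2.65% of all genes, but the log2 fold change of 1.20 ± 0.30 (SE, edgeR adjusted p = 0.0618) missed the threshold. At 22 °C iBAT had 178, 395, 134, 183 and 165 CPM in GC and 125, 137 and 64.3 CPM in Ctrl libraries, with 1 GC library below the highest Ctrl library. Averaged over the temperatures Hmgcs1 rose in iBAT, with a log2 fold change of 1.08 ± 0.23 (SE, edgeR adjusted p = 0.0107), and without the 3 libraries highest in muscle transcripts it was 0.98 (edgeR adjusted p = 0.0562). Muscle markers were at 0.19 to 6.09 in GC and 0.24 to 4.90 in Ctrl libraries at 13 °C, and at -0.06 to 3.86 in GC and 0.71 to 4.78 in Ctrl libraries at 22 °C.

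**Figure D3:**
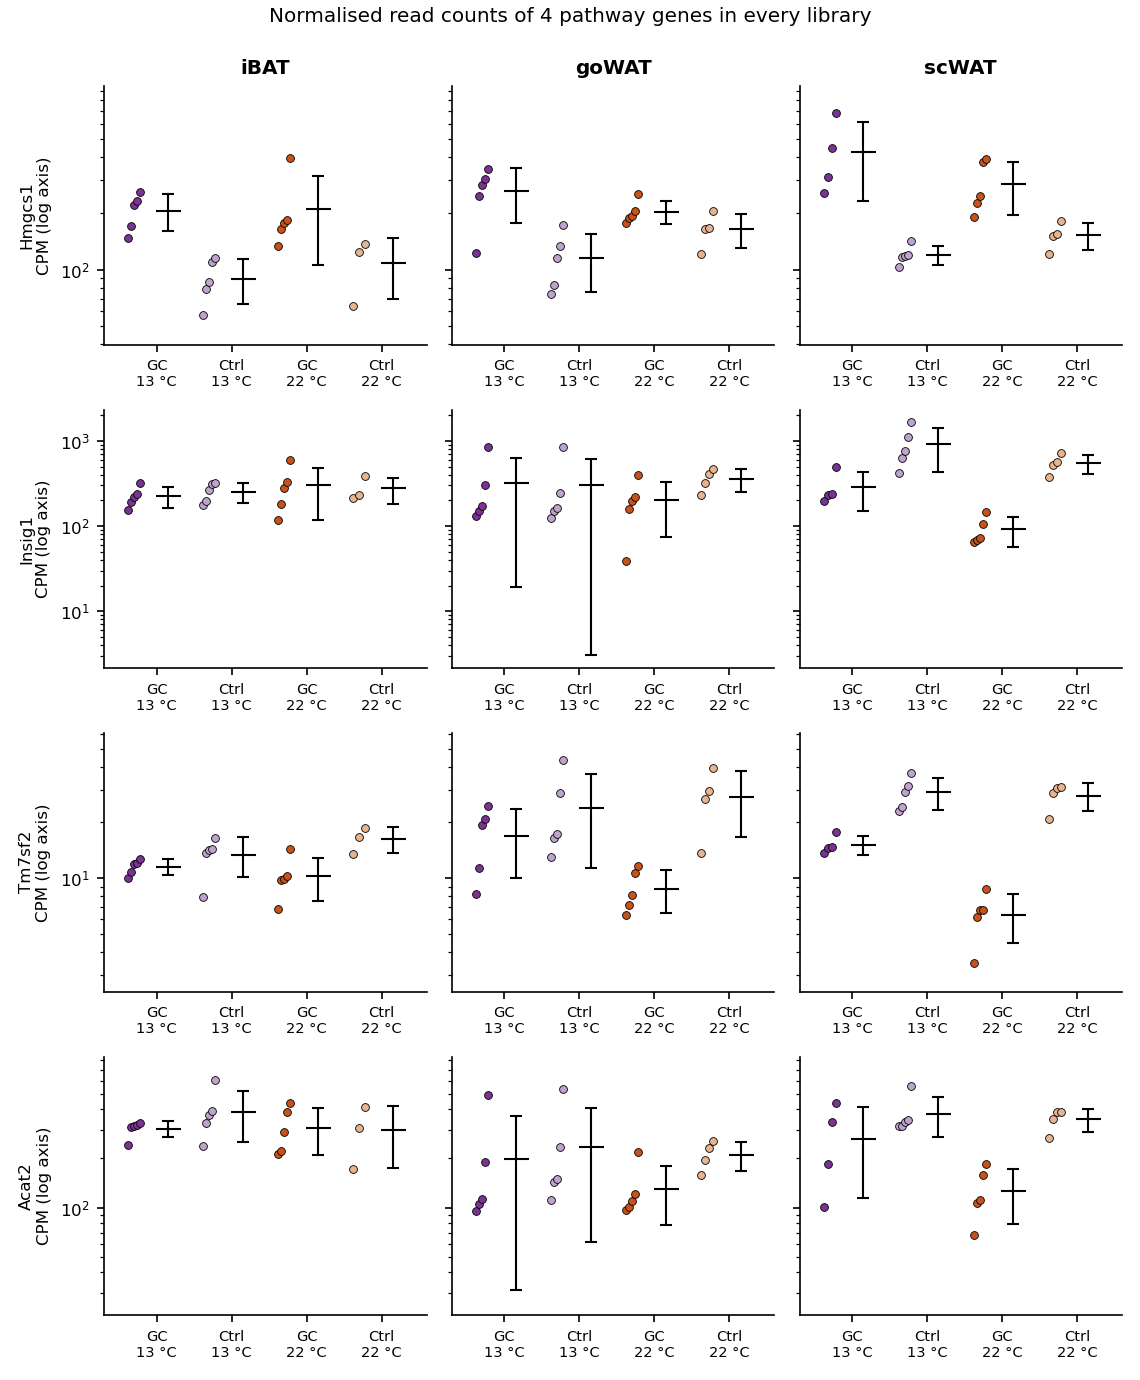
CPM per library (points, log axis) of Hmgcs1, Insig1, Tm7sf2 and Acat2 in iBAT, goWAT and scWAT, with mean ± SD for GC and Ctrl at 13 °C and GC and Ctrl at 22 °C. In scWAT at 22 °C the GC and Ctrl points of each of the 4 genes do not overlap, with Hmgcs1 above its Ctrl points and the other 3 genes below theirs.

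Acat2 (ENSMUSG00000023832, chromosome 17, 12942890 to 12960747, minus strand), the cytosolic thiolase that makes acetoacetyl-CoA, went the other way. In scWAT at 22 °C it had 159, 106, 67.7, 185 and 112 CPM in GC libraries, against 268, 385, 350.1 and 386 CPM in Ctrl libraries. The groups did not overlap and Acat2 fell, with a log2 fold change of -1.46 ± 0.34 (SE, edgeR adjusted p = 0.0117). Without GC replicates 2 and 3, the pair with macrophage transcripts, it was -1.20 (edgeR adjusted p = 0.0890). At 13 °C Acat2 had 439, 335, 186 and 100.3 CPM in GC and 559, 345, 317, 336 and 317 CPM in Ctrl libraries, which overlapped. With the temperatures averaged Acat2 fell in scWAT, with a log2 fold change of -0.98 ± 0.24 (SE, edgeR adjusted p = 0.0107), and without the 4 epithelial libraries the value was -0.65 (edgeR adjusted p = 0.372). Acat2 shares reads with a close copy, Acat3, since 39.1% of its exonic runs of 50 bases occur in transcripts of Acat3, so its counts are uncertain. Acat3 had a log2 fold change of -1.87 ± 0.65 (SE, edgeR adjusted p = 0.0889) in scWAT at 22 °C. Tcp1, on the other strand, shares 11.2% of the runs of Acat2 and had 0.29 ± 0.37 (SE, edgeR adjusted p = 0.705) there.

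Of the enzymes between mevalonate and lanosterol, Fdft1 (ENSMUSG00000021273, chromosome 14, 63145150 to 63179578, minus strand), the squalene synthase that commits the pathway to sterols, was called in scWAT. It had 82.4, 45.8, 45.2 and 52.8 CPM in GC libraries at 13 °C, against 134, 117, 105, 157 and 74.3 CPM in Ctrl libraries, with 1 GC library inside the Ctrl range. At 22 °C it had 71.5, 35.3, 21.95, 53.9 and 35.9 CPM in GC and 42.5, 92.5, 69.6 and 72.9 CPM in Ctrl libraries. Averaged over both temperatures Fdft1 fell, with a log2 fold change of -0.86 ± 0.22 (SE, edgeR adjusted p = 0.0121), and it was not called without the 4 epithelial libraries, at -0.61 (edgeR adjusted p = 0.479). In iBAT its sign at 22 °C was positive, 0.69 ± 0.24 (SE, edgeR adjusted p = 0.234), with 182, 117, 156, 117 and 108 CPM in GC and 62.5, 89.6 and 102 CPM in Ctrl libraries. The groups did not overlap there, as held for 1 of 29 members and for 7.57% of all genes. Fdft1 overlaps the abundant lysosomal protease gene Ctsb on the other strand by 774 exonic bases, and the library protocol marks no strand. The log2 fold change of Ctsb, averaged over temperatures, was 0.30 ± 0.22 (SE, edgeR adjusted p = 0.441) in scWAT and 0.71 ± 0.19 (SE, edgeR adjusted p = 0.0498) in iBAT. Fdft1 also shares 9.38% of its runs of 50 bases with Gm6781 in the same sense, so its counts are uncertain. Gm6781 had a log2 fold change of -0.91 ± 0.34 (SE, edgeR adjusted p = 0.0941) in scWAT averaged and 0.75 ± 0.33 (SE, edgeR adjusted p = 0.371) in iBAT at 22 °C.

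Tm7sf2 (ENSMUSG00000024799, chromosome 19, 6062821 to 6068373, minus strand) encodes a sterol reductase that acts after the demethylation of lanosterol, a step it shares with Lbr. It fell in both white depots. In scWAT at 22 °C it had 6.73, 8.70, 6.17, 6.69 and 3.49 CPM in GC libraries, against 20.8, 28.8, 31.2 and 30.7 CPM in Ctrl libraries. The highest GC value was 8.70 CPM and the lowest Ctrl value 20.8 CPM, and the log2 fold change was -2.13 ± 0.24 (SE, edgeR adjusted p = 2.74e-05). At 13 °C the values were 17.8, 14.7, 14.6 and 13.7 CPM in GC and 31.6, 36.95, 22.98, 29.2 and 24.3 CPM in Ctrl libraries, still without overlap, and the log2 fold change was -0.93 ± 0.24 (SE, edgeR adjusted p = 0.0399). That call at 13 °C was lost under 10 of 17 alternatives, 7 of which left out 1 library (Ctrl replicate 1, 2 or 4 or any GC replicate), while the call at 22 °C held under all 17 tried, with log2 fold changes from -2.31 to -1.93. Non-overlap held for 5 of 29 members at 22 °C and 2 at 13 °C, and for 8.49% and 8.53% of all genes.

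In goWAT at 22 °C Tm7sf2 had 11.6, 6.36, 10.6, 8.12 and 7.14 CPM in GC libraries, against 39.3, 26.8, 29.5 and 13.7 CPM in Ctrl libraries. The groups did not overlap, as held for 2 of 29 members and 8.32% of genes, and the log2 fold change was -1.63 ± 0.37 (SE, edgeR adjusted p = 0.00898). Without the 2 GC libraries of lowest total counts it was -1.50 (edgeR adjusted p = 0.0675). At 13 °C the goWAT groups overlapped, with 24.4, 8.23, 11.3, 19.4 and 20.9 CPM in GC and 17.4, 43.3, 12.99, 28.8 and 16.4 CPM in Ctrl libraries, and the averaged log2 fold change, past the threshold, was -1.07 ± 0.25 (SE, edgeR adjusted p = 0.00994). In iBAT at 22 °C Tm7sf2 had 14.4, 9.72, 9.90, 10.3 and 6.81 CPM in GC and 13.5, 18.7 and 16.6 CPM in Ctrl libraries, and the log2 fold change of -0.67 ± 0.27 (SE, edgeR adjusted p = 0.328) did not pass. The end of Tm7sf2 shares 9.87% of its runs of 50 bases with the neighbouring gene Vps51, so the counts of Tm7sf2 are uncertain. With GC in scWAT Vps51 had -0.09 ± 0.38 (SE, edgeR adjusted p = 0.921) at 22 °C, 0.28 ± 0.37 at 13 °C and 0.10 ± 0.27 averaged. In goWAT it had -0.27 ± 0.30 (SE, edgeR adjusted p = 0.642) at 22 °C and 0.21 ± 0.21 averaged. For 13 °C over 22 °C in GC of scWAT, where Tm7sf2 was also called, Vps51 had 0.86 ± 0.37 (SE, edgeR adjusted p = 0.150).

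Lbr, the nuclear envelope protein that can carry out the same reduction, was not called with GC in any depot. In goWAT at 22 °C it had 38.6, 12.6, 17.8, 6.09 and 18.1 CPM in GC and 28.3, 32.7, 45.1 and 28.4 CPM in Ctrl libraries, for a log2 fold change of -0.85 ± 0.37 (SE, edgeR adjusted p = 0.170). Without the 2 libraries with brown fat transcripts it was -1.31 (edgeR adjusted p = 0.0183). Brown adipocyte markers stood at 1.27 to 5.42 in GC and 2.06 to 2.47 in Ctrl libraries of goWAT at 22 °C, the upper end of the GC range being replicate 1.

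Hsd17b7 (ENSMUSG00000026675, chromosome 1, 169949535 to 169969241, minus strand), the ketoreductase of the demethylation complex that works beside Msmo1 and Nsdhl, rose in scWAT at 22 °C. It had 16.95, 9.25, 15.2, 12.9 and 15.02 CPM in GC libraries, against 3.99, 4.35, 3.75 and 8.44 CPM in Ctrl libraries. Each GC library lay above each Ctrl library, and the log2 fold change was 1.43 ± 0.35 (SE, edgeR adjusted p = 0.0159), which did not pass without Ctrl replicate 2, at 1.36 (edgeR adjusted p = 0.0627), or without Ctrl replicate 3, at 1.31 (edgeR adjusted p = 0.0588). At 13 °C the groups overlapped, with 12.2, 10.02, 4.35 and 8.60 CPM in GC and 17.97, 11.3, 9.22, 8.10 and 6.47 CPM in Ctrl libraries. In goWAT at 22 °C the log2 fold change was 0.89 ± 0.41 (SE, edgeR adjusted p = 0.203). Msmo1 and Nsdhl were not called in any comparison, and their log2 fold changes in scWAT at 22 °C were 0.29 ± 0.26 and -0.48 ± 0.30.

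The other 14 enzymes were called in none of the 23 comparisons. In scWAT with GC they ran from -1.005 (Lss, the lanosterol synthase) to 0.36 (Ggps1, which makes geranylgeranyl diphosphate on a side branch) at 13 °C, and from -0.87 (Cyp51, the lanosterol demethylase) to 0.59 (Mvk, mevalonate kinase) at 22 °C. Fdps and Idi1 share 23.4% and 17.7% of their runs of 50 bases with other annotated genes, so their counts are uncertain. Lss came nearest in scWAT at 13 °C, with 49.05, 32.2, 19.8 and 17.2 CPM in GC and 92.02, 84.04, 37.3, 45.1 and 38.1 CPM in Ctrl libraries and a log2 fold change of -1.005 ± 0.32 (SE, edgeR adjusted p = 0.0941). In iBAT at 13 °C Mvd, the mevalonate diphosphate decarboxylase, had 18.7, 12.3, 9.69, 10.5 and 10.6 CPM in GC and 11.99, 3.17, 3.31, 6.29 and 2.79 CPM in Ctrl libraries, for a log2 fold change of 1.16 ± 0.40 (SE, edgeR adjusted p = 0.256). Sqle, a known control point of the pathway, had 57.4, 30.5, 16.6 and 24.4 CPM in GC and 92.1, 37.5, 20.7, 33.6 and 16.2 CPM in Ctrl libraries of scWAT at 13 °C. At 22 °C it had 46.6, 18.4, 21.5, 13.1 and 25.1 CPM in GC and 16.5, 29.7, 24.5 and 22.6 CPM in Ctrl libraries, and at neither temperature did the groups separate. The summed level of the 20 enzymes in scWAT was 1099 to 1984 CPM in GC and 1222 to 2135 CPM in Ctrl libraries at 13 °C, and 844 to 1696 CPM in GC and 1091 to 1527 CPM in Ctrl libraries at 22 °C.

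**Figure D4:**
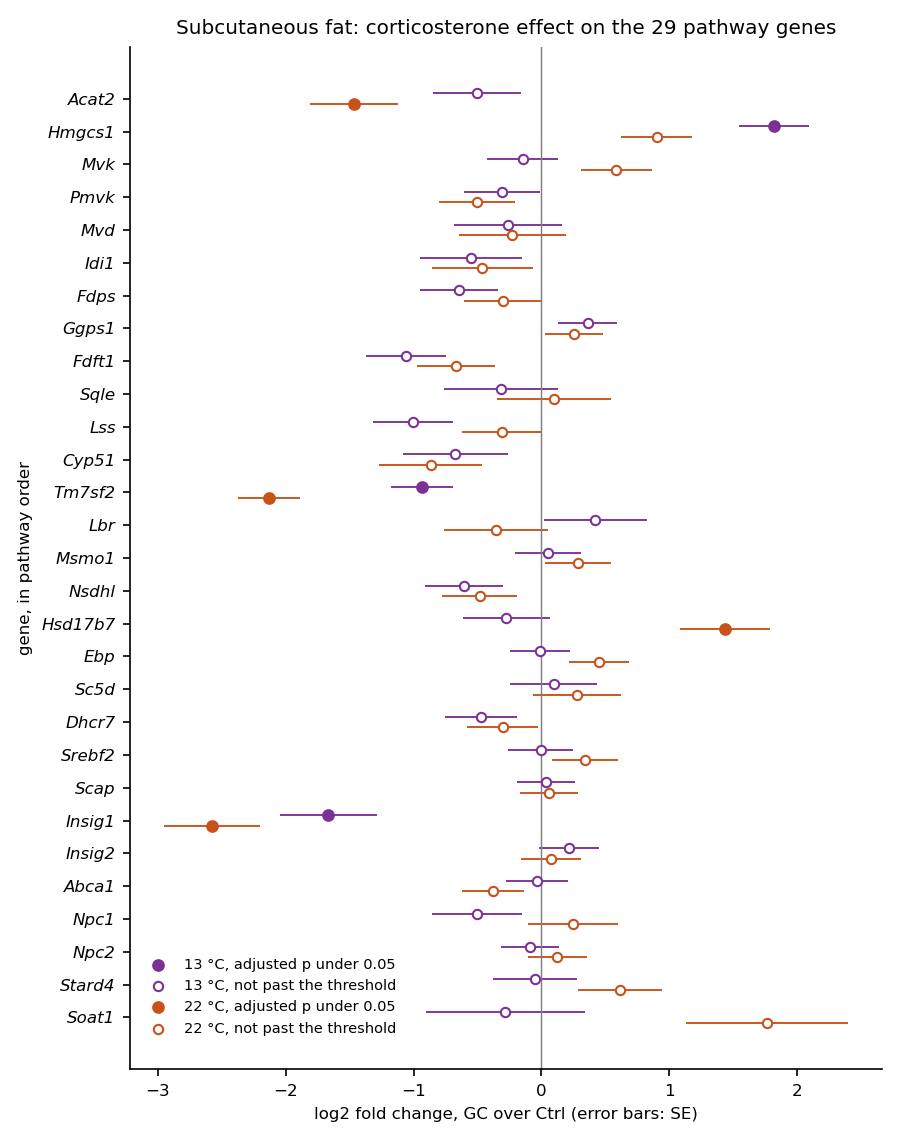
Log2 fold change of GC over Ctrl (± SE) for the 29 members in scWAT at 13 °C and at 22 °C, with called members marked. Insig1 and Tm7sf2 are negative and called at both temperatures, Hmgcs1 is positive and called at 13 °C, and most other members lie within 1 log2 unit of 0.

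Among the regulators, Insig1 (ENSMUSG00000045294, chromosome 5, 28071363 to 28078662, plus strand), the protein that holds Scap in the endoplasmic reticulum and is itself a target of SREBPs, was the member called. In scWAT at 22 °C it had 146, 68.4, 73.3, 107 and 64.7 CPM in GC libraries, against 375, 528, 721 and 565 CPM in Ctrl libraries. The groups were far apart, at 91.7 ± 34.4 CPM in GC and 547 ± 142 CPM in Ctrl libraries (SD, n = 5 and 4), and Insig1 fell, with a log2 fold change of -2.58 ± 0.37 (SE, edgeR adjusted p = 0.000222). At 13 °C it had 229.8, 493, 239.9 and 195 CPM in GC libraries, against 1669, 763, 637, 1100.4 and 423 CPM in Ctrl libraries. GC replicate 3 lay inside the Ctrl range, and the log2 fold change was -1.67 ± 0.38 (SE, edgeR adjusted p = 0.0182). The call at 22 °C held under all 17 alternatives tried, from -2.81 to -2.38, and the call at 13 °C was lost under 4 of 17, namely without GC replicate 1, 4 or 5 and without the epithelial libraries, where it was -2.10 (edgeR adjusted p = 0.561). Averaged over the temperatures Insig1 fell, with a log2 fold change of -2.12 ± 0.27 (SE, edgeR adjusted p = 1.99e-05).

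In the other depots Insig1 was not called. In goWAT at 22 °C it had 395, 159, 219, 199 and 38.9 CPM in GC and 414, 232, 473 and 317 CPM in Ctrl libraries, and the log2 fold change of -0.83 ± 0.65 (SE, edgeR adjusted p = 0.486) had a wide error. In iBAT at 22 °C the values were 332, 589.8, 284, 182 and 117 CPM in GC and 213, 383 and 233 CPM in Ctrl libraries, for 0.12 ± 0.39 (SE, edgeR adjusted p = 0.944). A test of whether the GC effect at 22 °C differed between the 3 depots gave an edgeR adjusted p = 0.109 for Insig1. No member passed that test at either temperature, where 0.742% of genes passed at 22 °C and 0.234% at 13 °C, and 5 and 2 members had an unadjusted p under 0.05.

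Srebf2, Scap and Insig2 did not pass with GC in any depot. In scWAT at 22 °C Srebf2 had 26.1, 23.8, 18.1, 22.9 and 21.5 CPM in GC and 16.5, 22.9, 17.1 and 14.5 CPM in Ctrl libraries, a log2 fold change of 0.34 ± 0.26 (SE, edgeR adjusted p = 0.471). At 13 °C it was -0.0047 ± 0.25 (SE) for Srebf2, 0.04 ± 0.23 for Scap and 0.22 ± 0.23 for Insig2 in scWAT. Over the 6 comparisons of GC with Ctrl at a single temperature, none of these 3 genes was called. RNA levels of Srebf2 and Scap say nothing of how much SREBP2 protein is cleaved.

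The falls in scWAT ran beside lower levels of brown adipocyte genes. Of all genes 3.45% fell at 22 °C and 1.14% at 13 °C, and of the 7 tested brown markers 6 and 4 fell. Their level was 2.76 to 4.48 in GC and 5.05 to 6.92 in Ctrl libraries at 13 °C, and 2.12 to 2.87 in GC and 3.55 to 6.66 in Ctrl libraries at 22 °C. None of the 8 listed brown markers was at 0 in all scWAT libraries. White adipocyte markers were at 12.10 to 12.87 in GC and 11.06 to 11.35 in Ctrl libraries at 13 °C, and at 11.43 to 12.23 in GC and 11.41 to 11.77 in Ctrl libraries at 22 °C. The part of these shifts in the changes of Insig1, Tm7sf2 and Acat2 was not tested.

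Among the transport and storage genes, Soat1 (ENSMUSG00000026600, chromosome 1, 156424525 to 156474331, minus strand), which stores cholesterol as ester and is abundant in macrophages, was called once, between the temperatures within GC. In scWAT of GC mice it had 5.70, 5.42, 2.29 and 4.34 CPM at 13 °C, against 9.94, 76.8, 47.1, 8.76 and 15.5 CPM at 22 °C, and each value at 13 °C lay under each value at 22 °C. The log2 fold change of 13 °C over 22 °C was -2.83 ± 0.67 (SE, edgeR adjusted p = 0.0196). GC replicates 2 and 3 at 22 °C, with 76.8 and 47.1 CPM, were the 2 libraries with the highest macrophage marker level, at 8.62 and 8.58. Over the groups, the 14 macrophage markers, none at 0 in every library, were at 4.59 to 5.13 at 13 °C and at 5.40 to 8.62 at 22 °C. In the same comparison 13 of the 14 fell, as did 982 of all 19003 genes tested. Without those 2 libraries the log2 fold change of Soat1 was -1.34 (edgeR adjusted p = 0.195), and the call was also lost without GC replicate 3 or 4 at 13 °C, at -2.94 (edgeR adjusted p = 0.0623) and -2.61 (edgeR adjusted p = 0.0676). In iBAT the same comparison gave -2.45 ± 0.72 (SE, edgeR adjusted p = 0.153), where GC replicate 5 at 22 °C had 25.03 CPM, the other 4 libraries at 22 °C had 3.92 CPM or less, and that replicate had the highest macrophage level of the depot, 6.97.

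**Figure D5:**
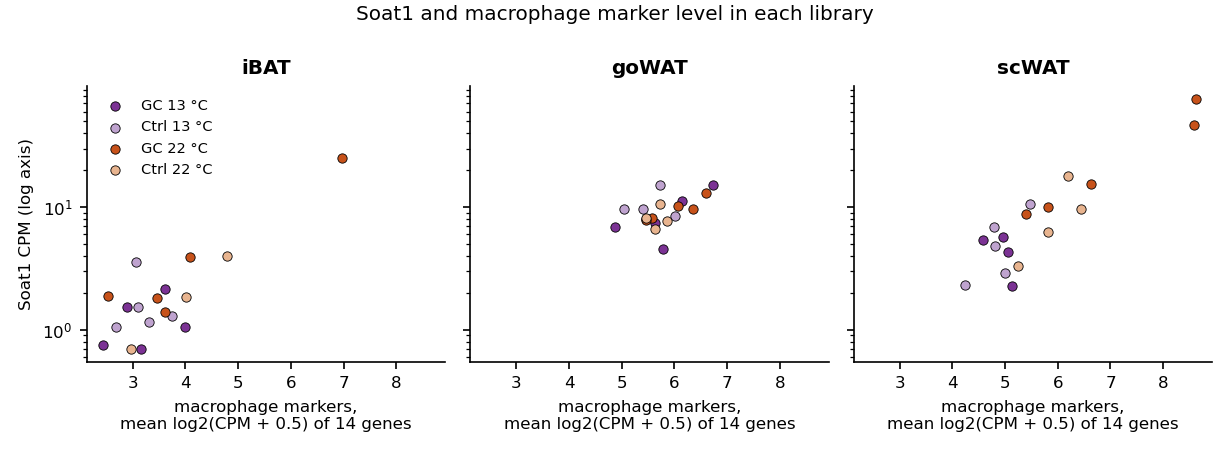
Soat1 level in CPM (log axis) against the mean log2(CPM + 0.5) of 14 macrophage markers, 1 point per library, for iBAT, goWAT and scWAT. The libraries with the highest Soat1 in scWAT, 76.8 and 47.1 CPM, and in iBAT, 25.03 CPM, are also those with the highest macrophage marker level of their depot.

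Abca1, the pump that hands cholesterol to lipid-poor lipoprotein and is a target of the sterol-sensing LXR receptors, had negative log2 fold changes in each depot when the temperatures were averaged and passed in none. In goWAT at 13 °C it had 143, 146, 129.6, 147 and 119 CPM in GC and 182, 181, 208, 170.3 and 195 CPM in Ctrl libraries. The groups did not overlap, as held for 1 of 29 members and for 4.79% of genes, and the log2 fold change was -0.45 ± 0.20 (SE, edgeR adjusted p = 0.276). In iBAT at 13 °C it had 74.5, 48.7, 39.5, 20.9 and 26.5 CPM in GC and 95.02, 69.8, 57.4, 77.5 and 56.3 CPM in Ctrl libraries, and averaged over temperatures the iBAT value was -0.75 ± 0.26 (SE, edgeR adjusted p = 0.149). Npc1, the lysosomal membrane partner of Npc2, had 17.8, 10.1, 15.7, 13.4 and 13.002 CPM in GC and 16.9, 15.4, 22.1, 26.4 and 20.7 CPM in Ctrl libraries of goWAT at 13 °C, for a log2 fold change of -0.54 ± 0.23 (SE, edgeR adjusted p = 0.256). Stard4 in the same libraries gave -0.84 ± 0.36 (SE, edgeR adjusted p = 0.263). Npc2 did not overlap between GC and Ctrl libraries of goWAT at 22 °C, with 1035, 1079, 1061, 1085 and 1169 CPM in GC and 956, 908, 741 and 711 CPM in Ctrl libraries, but its log2 fold change of 0.39 ± 0.23 (SE, edgeR adjusted p = 0.318) did not pass.

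Cold in Ctrl mice, 13 °C against 22 °C, gave no called member in any depot, and the background was 0.0175%, 0.312% and 0% of genes in iBAT, goWAT and scWAT. In that order 2, 1 and 4 members had an unadjusted p under 0.05, and DESeq2 called 1, 0 and 0. In scWAT, where no gene at all passed with edgeR and 12.4% had an unadjusted p under 0.05, 24 of the 29 members had a positive log2 fold change and the median was 0.24, against -0.01 over all genes. Of the 20 enzymes 18 were positive, as were all 4 regulators. The mean log2(CPM + 0.5) of the enzymes was 5.96 and 5.64 in Ctrl replicates 1 and 2 at 13 °C. It was 5.22, 5.33 and 5.11 in Ctrl replicates 3, 4 and 5, against 4.905 to 5.31 in Ctrl libraries at 22 °C. Many enzymes stood high or low together within a library, so these signs are not independent observations. The smallest p-values were those of Hsd17b7, with 1.05 ± 0.35 (SE, edgeR adjusted p = 0.276), of Lss, with 0.84 ± 0.31 (SE, edgeR adjusted p = 0.307), and of Fdft1, with 0.76 ± 0.31 (SE, edgeR adjusted p = 0.333). In iBAT, Fdft1 came first with 153, 177, 149, 148 and 185 CPM at 13 °C, against 62.5, 89.6 and 102 CPM at 22 °C, without overlap (3 of 29 members, 6.96% of genes), and a log2 fold change of 0.94 ± 0.24 (SE, edgeR adjusted p = 0.275). Mvk followed in iBAT with -0.70 ± 0.29 (SE, edgeR adjusted p = 0.493) and Npc1 with 0.77 ± 0.38 (SE, edgeR adjusted p = 0.589). In goWAT the 3 smallest p-values were those of Stard4, with 0.83 ± 0.39 (SE, edgeR adjusted p = 0.700), Hmgcs1, with -0.50 ± 0.27, and Ggps1, with 0.36 ± 0.21.

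Within GC mice, 3 members were called between 13 °C and 22 °C in scWAT, where 8.18% of genes were, and none in goWAT (0.0149%) or iBAT (0.00583%), where 1 and 3 members had an unadjusted p under 0.05 and DESeq2 called 0 and 1. Beside Soat1 these were Tm7sf2, with 17.8, 14.7, 14.6 and 13.7 CPM at 13 °C against 6.73, 8.70, 6.17, 6.69 and 3.49 CPM at 22 °C, and Insig1, with 229.8, 493, 239.9 and 195 CPM at 13 °C against 146, 68.4, 73.3, 107 and 64.7 CPM at 22 °C. Both were higher at 13 °C without overlap, as held for 3 of 29 members and 8.67% of genes, with log2 fold changes of 1.25 ± 0.24 (SE, edgeR adjusted p = 0.0140) for Tm7sf2 and 1.66 ± 0.36 (SE, edgeR adjusted p = 0.0145) for Insig1. Without the macrophage pair no member was called in this comparison, where 2 of all 19208 genes tested rose and 0 fell. The 3 calls were also lost without the epithelial libraries, which leaves 1 GC library at 13 °C. Insig1 was not called without GC replicate 3 at 13 °C, at 1.28 (edgeR adjusted p = 0.0713). In the same comparison 13 of 14 macrophage, 9 of 11 cell cycle and 6 of 6 epithelial markers were called, the epithelial ones higher at 13 °C and the others lower. Brown adipocyte markers were at 2.76 to 4.48 at 13 °C and 2.12 to 2.87 at 22 °C, 1 of the 7 tested (Cox8b, higher at 13 °C) was called and 5 had an unadjusted p under 0.05. The part of these markers in the 3 calls was not tested. In iBAT Srebf2 had 15.3, 12.7, 19.8, 18.6 and 12.2 CPM at 13 °C against 31.3, 43.1, 29.1, 18.7 and 16.7 CPM at 22 °C in GC mice, a log2 fold change of -0.82 ± 0.27 (SE, edgeR adjusted p = 0.176), and Lbr had -1.04 ± 0.45 (SE, edgeR adjusted p = 0.281). In goWAT the 3 smallest p-values belonged to Tm7sf2, with 0.94 ± 0.35 (SE, edgeR adjusted p = 0.233), Lbr, with 0.66 ± 0.35, and Idi1, with 0.60 ± 0.42.

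The interaction asks whether the GC effect at 13 °C differed from that at 22 °C, and no member passed it in any depot with edgeR. At an unadjusted p under 0.05 there were 2 members in iBAT, 2 in goWAT and 4 in scWAT, and DESeq2 called 1 member in scWAT. No gene passed in scWAT or iBAT, where 9.67% and 6.4% had an unadjusted p under 0.05, and 0.461% passed in goWAT. In scWAT the difference, 13 °C minus 22 °C, was 1.20 ± 0.33 (SE, edgeR adjusted p = 0.261) for Tm7sf2, -1.71 ± 0.49 (SE, edgeR adjusted p = 0.261) for Hsd17b7 and 0.92 ± 0.38 (SE, edgeR adjusted p = 0.438) for Hmgcs1. In goWAT it was 0.86 ± 0.38 (SE, edgeR adjusted p = 0.324) for Hmgcs1 and 1.14 ± 0.50 (SE, edgeR adjusted p = 0.326) for Tm7sf2. In iBAT it was -1.13 ± 0.31 (SE, edgeR adjusted p = 0.708) for Fdft1 and -1.09 ± 0.50 (SE, edgeR adjusted p = 0.769) for Npc1. The calls of Hmgcs1 at 13 °C only and of Acat2 and Hsd17b7 at 22 °C only are therefore not shown to differ between the temperatures. Between depots, the test of the GC effect at 22 °C gave an edgeR adjusted p = 0.0925 for Fdft1, with log2 fold changes in iBAT, goWAT and scWAT of 0.69, -0.53 and -0.67. For Tm7sf2 it gave an adjusted p = 0.148.

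Few members were called between depots. Among Ctrl mice at 22 °C, 1 member was called between iBAT and goWAT (background 14.7%), and none between iBAT and scWAT (2.81%) or goWAT and scWAT (4.33%), where 4 and 2 members had an unadjusted p under 0.05 and DESeq2 called 1 and 0. That member was Lbr, with 5.11, 9.36 and 3.71 CPM in iBAT, against 28.3, 32.7, 45.1 and 28.4 CPM in goWAT. These CPM were scaled within each depot, while the test scaled all libraries together. Each iBAT library lay below each goWAT library, and the log2 fold change of iBAT over goWAT was -2.05 ± 0.55 (SE, edgeR adjusted p = 0.00700), which without iBAT replicate 3 did not pass, at -1.81 (edgeR adjusted p = 0.0826). Pmvk was next, at 0.85 ± 0.31 (SE, edgeR adjusted p = 0.0542), and then Fdps, the farnesyl diphosphate synthase, at 1.13 ± 0.43 (SE, edgeR adjusted p = 0.0706). For iBAT over scWAT the smallest p belonged to Srebf2, at 0.75 ± 0.27 (SE, edgeR adjusted p = 0.116), and for goWAT over scWAT to Lbr, at 1.32 ± 0.48 (SE, edgeR adjusted p = 0.0962), and Pmvk, at -0.72 ± 0.29 (SE, edgeR adjusted p = 0.137). The labels do not say which libraries were prepared together, so a difference in preparation cannot be told apart from a difference between depots.

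Libraries of a group also differed in how many enzymes stood high. For each library, the enzymes above their median over the depot were counted. At least 16 of the 20 lay above it in 8 of the 55 libraries and at most 4 of the 20 in 10. The 8 libraries were iBAT Ctrl replicate 1 at 13 °C, GC replicate 1 at 22 °C and Ctrl replicate 2 at 22 °C, goWAT GC replicate 1 and Ctrl replicate 2 at 13 °C, and scWAT GC replicate 1, Ctrl replicate 1 and Ctrl replicate 2 at 13 °C. They include GC and Ctrl mice and both temperatures, but those of the white depots were all at 13 °C. All 8 were replicate 1 or 2, while of the 10 low libraries only scWAT Ctrl replicate 1 at 22 °C was so numbered. Whether the enzymes follow the replicate number was not tested. Within goWAT the range was 3 to 19 of 20 enzymes in GC libraries and 2 to 18 in Ctrl libraries at 13 °C. In scWAT at 13 °C it was 3 to 18 in GC and 8 to 17 in Ctrl libraries. In iBAT at 13 °C it was 8 to 13 in GC and 5 to 17 in Ctrl libraries. Such spread within a group enters the error of each enzyme's test.

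Lists of genes next to the pathway were counted in the same fits. Of 13 genes of fatty acid synthesis, which SREBP1 drives, 9 fell with GC in scWAT at 22 °C and 3 at 13 °C, with medians of -1.62 and -1.01, where 3.45% and 1.14% of all genes fell. The elongase Elovl6 led, at -3.45 ± 0.49 (SE, edgeR adjusted p = 0.000178) at 22 °C and -2.98 ± 0.51 (SE, edgeR adjusted p = 0.00234) at 13 °C. Averaged over temperatures 11 of the 13 fell in scWAT (background 5.94%), 3 in goWAT (3.94%) and 1 in iBAT (1.49%). Without the epithelial libraries, which leaves 1 GC library at 13 °C, fewer of them fell in scWAT. Without the brown fat pair 10 fell in goWAT, where 1119 of all 20097 genes fell. Of 12 other genes of sterol handling, 2 were called in scWAT, 3 in goWAT and 0 in iBAT with the temperatures averaged, where 11.1%, 8.39% and 2.84% of all genes were called. Gramd1a, a sterol transporter between plasma membrane and endoplasmic reticulum, fell in scWAT, with an averaged log2 fold change of -1.16 ± 0.16 (SE, edgeR adjusted p = 4.95e-05), and in goWAT, with -0.75 ± 0.15 (SE, edgeR adjusted p = 0.00225). Scarb1, the receptor for high-density lipoprotein, fell with -0.74 ± 0.19 (SE, edgeR adjusted p = 0.0129) and -0.78 ± 0.17 (SE, edgeR adjusted p = 0.00507) in the same depots, Stard5, a sterol-binding protein, rose in goWAT with 0.68 ± 0.16 (SE, edgeR adjusted p = 0.0118), and without the epithelial libraries 1 gene of this list was called in scWAT. Of 6 genes of the LXR and efflux list, Mylip, which marks lipoprotein receptors for breakdown, fell in all 3 depots, with -1.32 ± 0.26 (SE, edgeR adjusted p = 0.00646) in iBAT, -0.58 ± 0.18 (SE, edgeR adjusted p = 0.0439) in goWAT and -0.58 ± 0.17 (SE, edgeR adjusted p = 0.0263) in scWAT. Abcg1, another cholesterol exporter, rose in scWAT, with a log2 fold change of 1.09 ± 0.28 (SE, edgeR adjusted p = 0.0144). Of 4 oxysterol enzymes, Cyp27a1, the sterol hydroxylase of mitochondria, rose in iBAT with 1.04 ± 0.16 (SE, edgeR adjusted p = 0.000508) and in goWAT with 0.60 ± 0.17 (SE, edgeR adjusted p = 0.0342). Of 12 genes of the isoprenoid branch 1 was called in each depot with the temperatures averaged, a share under the background in scWAT and goWAT and above it in iBAT. These were the farnesyltransferase subunit Fntb, which rose in iBAT with 0.90 ± 0.24 (SE, edgeR adjusted p = 0.0480), the prelamin protease Zmpste24, which fell in goWAT with -0.58 ± 0.15 (SE, edgeR adjusted p = 0.0197), and Pdss2, of coenzyme Q synthesis, which fell in scWAT with -0.74 ± 0.19 (SE, edgeR adjusted p = 0.0119). Of 9 genes of SREBP processing and sterol sensing none was called by edgeR in any comparison of GC with Ctrl, while up to 2 had an unadjusted p under 0.05.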

How the data were processed

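The authors deposited raw counts, whole reads assigned to each of 31933 genes, as a table for each depot. Per the submitters' processing notes, FastQC, GSNAP and featureCounts (version 1.6.3) were used with mm10, and per the labels' protocols cryosectioned tissue was laser-captured, RNA was isolated on micro columns and SMART-Seq2 libraries, which mark no strand, were made. How the counting treated strand and reads with several positions was not stated. Symbols and exons are those of GENCODE M21 and promoters those of RefSeq (GRCm38.p6). No column was left unused.

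Counts were analysed in R 4.3.3 with edgeR 4.0.16: filterByExpr (minimum count 10, total 15), TMM factors, 1 mean per group, robust quasi-likelihood fit and Benjamini-Hochberg adjustment over the genes tested, 17163 in iBAT, 20175 in goWAT, 19003 in scWAT and 22245 over all libraries. Each depot had its own fit, and 5 comparisons used all 55 libraries. CPM are TMM-scaled within each depot, so they are not on 1 scale between depots. CPM per kilobase were scaled over all 55 libraries. Marker levels are means of log2(CPM + 0.5), and SE was taken from the F statistic. Libraries held 14043773 to 35790654 counts (iBAT), 12310822 to 53121372 (goWAT) and 8622178 to 56450653 (scWAT), and the biological coefficient of variation ran from 47.8% to 50.5% in the depots and was 52.95% over all libraries. The code was tested on simulated data. Alternatives were DESeq2 1.42.0, limma 3.58.1 (voom with quality weights), upper quartile scaling, no filter, a replicate block, only the 2 groups compared, and libraries left out 1 at a time or in sets rich in other cells' transcripts or, in goWAT, lowest in total counts. Statistics are given for called members and, where fewer than 3 were called in a comparison, also for those of smallest p up to 3. Hmgcs1, Sqle, Srebf2, Insig1 and Abca1 could be given anywhere, and other lists' genes where called. Members, lists and tests were chosen with earlier results of these data known.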

Additional observations from a re-analysis of the deposited data

Results flagged for a closer look

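In 7 of 88 tests of a group for 8 members, 1 library lay far from the others of its group by Dixon's criterion, a gap that chance gives in about 1 of 20 groups. In iBAT, Acat2 was 243.1 CPM in GC replicate 4 at 13 °C, against 312.9 to 330.2 CPM in the rest of that group. Ctrl replicate 2 of iBAT at 13 °C stood out for 2 members, with Tm7sf2 at 7.92 CPM (the rest 13.72 to 16.56) and Soat1 at 3.55 CPM (the rest 1.046 to 1.54). In goWAT, Acat2 was 219.1 CPM in GC replicate 1 at 22 °C, one of the libraries with brown fat transcripts, against 96.66 to 121.6 CPM in the rest. Hsd17b7 was 9.74 CPM in Ctrl replicate 3 at 22 °C (the rest 4.583 to 5.179), and Soat1 15.05 CPM in Ctrl replicate 3 at 13 °C (the rest 8.076 to 9.686). In scWAT, Acat2 was 559.5 CPM in Ctrl replicate 1 at 13 °C, one of the libraries in which at least 16 of the 20 enzymes stood above their median, against 316.9 to 344.7 CPM in the rest.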

How the results depend on the processing

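No member's call reversed under any alternative run. The numbers of called members changed as follows, the value reported coming first. With GC in iBAT they were 0 and 2 under limma at 22 °C, 0 and 1 at 13 °C under DESeq2, upper quartile scaling, limma, the replicate block and the fit of only the 2 groups, and 1 averaged, with 2 under limma and 0 without the 3 libraries highest in muscle transcripts. Between the temperatures in iBAT they were 0 and 1 in Ctrl under DESeq2 and limma, and 0 and 1 in GC under DESeq2. With GC in goWAT they were 1 at 22 °C, with 0 without the 2 libraries of lowest totals and 2 without the brown fat libraries, 1 at 13 °C, with 0 in the fit of only the 2 groups and without the epididymis libraries, and 2 averaged, with 4 without the brown fat libraries. With GC in scWAT they were 3 at 13 °C, with 5 under DESeq2 and limma and 0 without the epithelial libraries, and 5 averaged, with 9 under limma and 3 without the epithelial libraries. Between the temperatures in GC of scWAT they were 3, with 6 under DESeq2, 5 under limma and 0 without the macrophage pair or the epithelial libraries, and the scWAT interaction gave 0, with 1 under DESeq2. Over the depots, iBAT against scWAT gave 0 and 1 under DESeq2, goWAT against scWAT 0 and 2 under limma, iBAT against goWAT 1, with 3 under DESeq2, upper quartile scaling and the replicate block and 4 under limma, and the test between depots at 22 °C 0 and 1 under limma. Leaving out 1 library at a time gave 0 to 1 for GC in iBAT at 13 °C (1 without Ctrl replicate 1 at 13 °C) and in goWAT at 13 °C, 1 to 2 in goWAT at 22 °C (2 without GC replicate 1), 2 to 3 in goWAT averaged, 3 to 6 in scWAT at 22 °C, 1 to 3 in scWAT at 13 °C (1 without GC replicate 4 or 5), 5 to 8 in scWAT averaged (8 without GC replicate 1 of either temperature), 1 to 6 between the temperatures in GC of scWAT (6 without GC replicate 1 at 22 °C, 1 without GC replicate 3 at 13 °C) and 0 to 2 for iBAT against goWAT. The causes were not tested, beyond the fewer libraries left. The share of all genes called is not given for DESeq2 and limma, so those counts do not single out the members. Averaged in goWAT, 897 genes rose and 795 fell of 20175, and 1216 and 1119 of 20097 without the brown fat libraries. Averaged in iBAT, 232 rose and 255 fell of 17163, and 143 and 189 of 17826 without the muscle libraries. Between temperatures in GC of scWAT, 573 rose and 982 fell of 19003, and 2 and 0 of 19208 without the macrophage pair. Scaling moved the median of all genes by under 0.1 on the log2 scale. Deviations of same-numbered libraries had median correlations of -0.002 in iBAT, 0.01 in goWAT and -0.003 in scWAT, and 5 of 18, 1 of 19 and 2 of 18 libraries correlated best with their own number. Over all 55 libraries the median was 0.002 (-0.35 to 0.35), 38 of 203 same-numbered pairs exceeded 0.1 and 16 of 55 libraries correlated best with their own number. Within a depot the same-numbered libraries came from mice of different treatment or temperature, and the pairs over all depots included such libraries. These correlations therefore cannot show whether a number marks the same mouse. The numbers were not used to pair libraries, and whether animals are shared between depots is unknown. With the replicate block the Soat1 call between the temperatures in GC of scWAT was lost, at -2.62 (edgeR adjusted p = 0.0643), as was that of Tm7sf2 with GC in scWAT at 13 °C, at -0.83 (edgeR adjusted p = 0.0876). Depth per library bounds what can be called among low members such as Soat1 and Stard4.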
